A study of Mus musculus with 12 samples.

Results

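Chat, Drd4 and Slc6a2 are 3 genes of acetylcholine and catecholamine signalling, taken by name from a table of 5764 genes. Chat encodes choline acetyltransferase, the enzyme that makes acetylcholine. Drd4 encodes the D4 dopamine receptor, and Slc6a2 encodes the noradrenaline transporter. They were selected on their SENS and NEO levels in these same libraries, so their differences between groups are a description and carry no test.

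The RNA came from arcuate-enriched hypothalamic dissections of POMCRiboTag mice, in which ribosomes of pro-opiomelanocortin (POMC) neurons carry an HA tag and are pulled down with an anti-HA antibody. All mice had been fasted for 16 h and then kept in the experimental room for 1 h. For 10 min, the 6 NEO libraries' mice faced wooden sticks behind metal mesh, and the 6 SENS libraries' mice faced chow that they could see and smell but not eat. The time of day was near zeitgeber time 6 h in both groups. RiboTag alleles are switched on by Cre recombinase, so a cell that made POMC only in development can carry the tag as well. The mice were housed together in small groups, and the labels state neither age nor sex. Nothing in the labels ties each library to its own mouse, so every spread below is a spread between libraries. No input or untagged library was used here, and the table holds none of 7 POMC neuron markers, so the labelled cell type could not be checked.

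Acetylcholine made by Chat is loaded into vesicles and acts on nicotinic and muscarinic receptors. In the mouse arcuate nucleus a subset of POMC neurons is known to make Chat. Dopamine acts on D1-like receptors, which raise cyclic AMP, and on D2-like receptors, to which D4 belongs, which lower it. Noradrenaline reaches the hypothalamus mainly through axons of hindbrain neurons, and the transporter made from Slc6a2 takes it back up, together with dopamine.

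The loci are given in GRCm38.p6, as RefSeq annotates them. Chat spans chr14:32408203-32465909, and the gene of the vesicular acetylcholine transporter, Slc18a3, lies inside that span at chr14:32462437-32464850. Reads of Slc18a3 are not analysed here. Drd4 is compact, at chr7:141291974-141296464, 4491 bases against 57707 for Chat. Slc6a2 spans 41198 bases at chr8:92960470-93001667. Within 20 kb of the members the table held 1 further gene, the carboxylesterase gene Ces1a beside Slc6a2. It had 5 reads in NEO 4, 1 in NEO 5 and 1 in SENS 5, and so did not share the pattern of Slc6a2.

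Promoter windows from RefSeq (GRCm38.p6) were matched for Chat and Drd4. None was matched for Slc6a2, so its promoter is not shown. The first 200 bases of each window are shown, 5′ to 3′ on the gene's strand, to set the letters of these promoters side by side. They lie 250 to 51 bases before the gene start given above for Chat and 206 to 7 bases before it for Drd4. In Chat (chr14:32465960-32466159, minus strand) capitals mark TGACG, a half-site of a cyclic AMP response element, and CANNTG, the E-box. In Drd4 (chr7:141291768-141291967, plus strand) they mark GGGCGG, the GC box.
Chat: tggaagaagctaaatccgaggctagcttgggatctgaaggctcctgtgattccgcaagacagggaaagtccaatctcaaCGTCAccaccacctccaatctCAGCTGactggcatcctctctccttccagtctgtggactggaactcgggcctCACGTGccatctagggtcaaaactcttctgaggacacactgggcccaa
Drd4: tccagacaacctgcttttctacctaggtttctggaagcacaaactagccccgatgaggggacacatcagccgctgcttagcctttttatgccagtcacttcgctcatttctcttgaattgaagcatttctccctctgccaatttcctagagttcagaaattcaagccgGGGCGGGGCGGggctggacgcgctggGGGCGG
Both strands were searched. Drd4 held 3 GGGCGG matches, of which 2 share a base, and Chat held none. At least 1 such match was found in 24.6% of the 32851 windows of this length, and 3 or more in 4.34%. Chat held 1 TGACG match (12.7% of windows have one) and 2 CANNTG matches (59.0% of windows have one), and Drd4 held neither. The CCAAT box, CCAAT, was found in both, with 2 matches in Chat and 1 in Drd4 (28.4% of windows have one). Both stretches were 54% G and C, against a median of 51.5% over all windows. These matches are letters in a window and were not tested as binding sites.

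Each library had between 6901 and 18299 reads in the genes of this table, averaging 8509 ± 1749 for NEO and 13104 ± 3466 for SENS (SD over 6 libraries), or 1.54-fold more for SENS. Levels are in CPM, the reads of a gene scaled to a total of 1000000 over the genes of this table, and a single read counted for 54.6 CPM in the deepest library and 145 CPM in the shallowest. A level of 0 in 1 library allows up to 3 reads, which is between 164 and 435 CPM. Pooled over a group, 0 reads allow 58.8 CPM in NEO and 38.2 CPM in SENS. These limits cover counting error only. Across genes of the table with any read, 86.2% had fewer reads than Chat (62 over all libraries), 59.7% fewer than Slc6a2 (18.4) and 48.2% fewer than Drd4 (11). The rank mixes gene length with level.

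Chat had the most reads of the members and was found in both groups. In NEO its level was 1075, 449, 140, 0, 1014 and 2195 CPM in replicates 1 to 6, from 11, 5, 1, 0, 7 and 17 reads. In SENS it was 0, 0, 299.9, 745, 664 and 54.6 CPM, from 0, 0, 4, 8, 8 and 1 reads. NEO 1, NEO 5 and NEO 6 lay above every SENS library, while NEO 3 and NEO 4 lay below SENS 3, SENS 4 and SENS 5, so the groups overlapped. The mean level was 812 ± 808 CPM over the NEO libraries and 294 ± 338 CPM over the SENS libraries (SD, n = 6 per group), a ratio of 2.76. The SENS mean minus the NEO mean was −518 CPM with a standard error of 358 CPM. That difference is smaller than the spread between NEO libraries.

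Single libraries set much of the Chat difference. Without NEO 6, which held 17 of the 41 NEO reads, it was −242 CPM. The labels carry library numbers in 3 ranges, and NEO and SENS have equal numbers of libraries in each. In the middle range, numbers 1062 to 1074 with 3 libraries per group, the direction was the opposite one, with a mean of 196 CPM in NEO and 348 CPM in SENS. In the highest range, 1103 to 1116, the 2 NEO libraries averaged 1605 CPM and the 2 SENS libraries 359.5 CPM. The lowest range, 1046 to 1050, held 1 library per group, at 1075 and 0 CPM. The lower Chat level in SENS therefore did not hold within every range. In pulled-down RNA of this kind, fewer cells with the transcript and less of it per cell cannot be told apart.

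**Figure D1:**
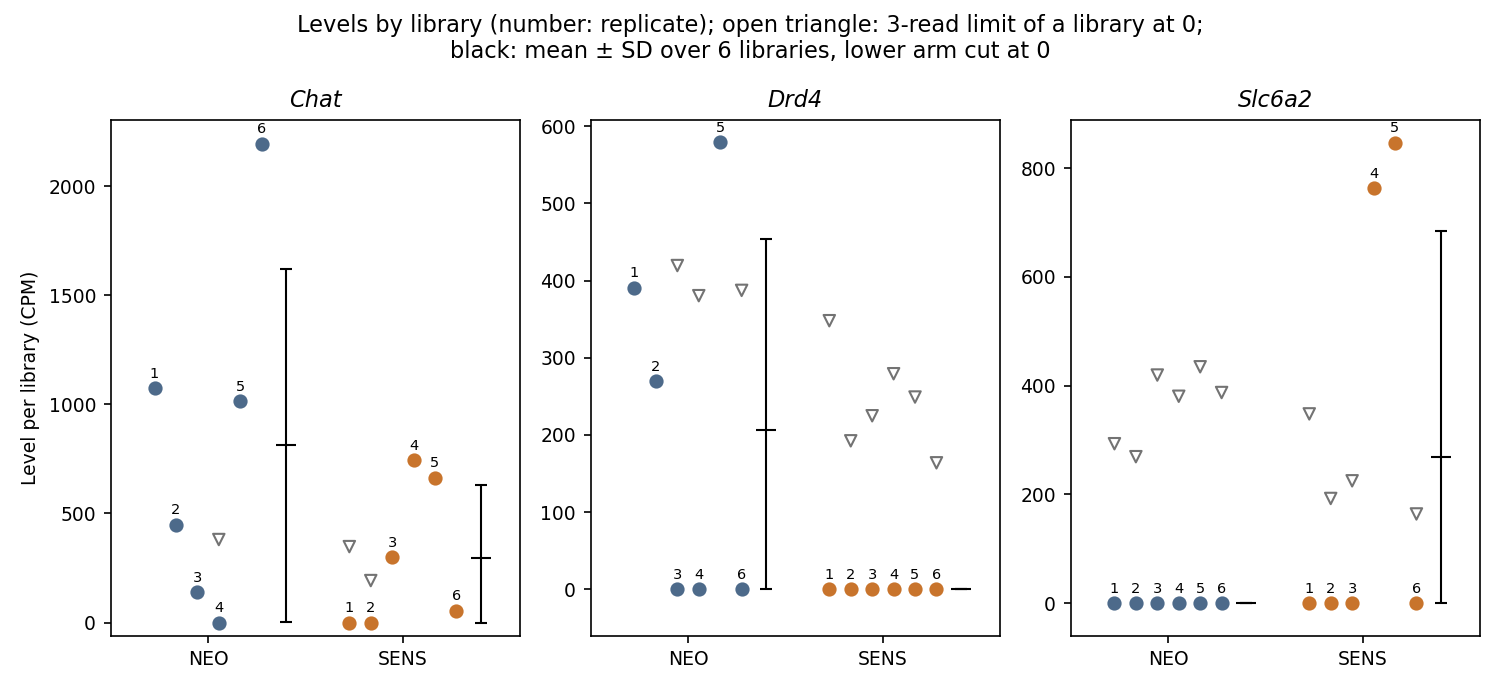
Level of Chat, Drd4 and Slc6a2 in CPM (vertical axis, a separate scale for each gene) in the 6 NEO and 6 SENS libraries, numbered by replicate; black bars give the mean ± SD, and open triangles the level that 3 reads would have in a library at 0. Chat overlaps between groups, Drd4 is above 0 in NEO 1, 2 and 5 only, and Slc6a2 in SENS 4 and 5 only.

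Drd4, the inhibitory dopamine receptor gene, had reads in NEO alone. Its NEO level was 391, 269, 0, 0, 579.6 and 0 CPM, from 4, 3, 0, 0, 4 and 0 reads, with a mean of 207 ± 247 CPM (SD, n = 6). All 6 SENS libraries were at 0. So were NEO 3, NEO 4 and NEO 6, and the groups overlapped at 0.

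The Drd4 zeros in SENS lay in the group with more reads in the genes of this table. Pooled, Drd4 had 11 of 51054 reads in NEO, a level of 215 CPM, and 0 of 78624 in SENS. Against the pooled SENS limit of 38.2 CPM it was at least 5.65-fold lower in SENS. The bound takes no account of the counting error of those 11 reads or of how libraries vary, and it lay between 4.16 and 6.68 with each library left out in turn. Taken singly, the SENS libraries allow between 164 and 348 CPM, so a level like the 269 CPM of NEO 2 was not detectable as a difference in all of them. Without NEO 5 the difference of the means moved from −207 to −132 CPM. Within the ranges of library numbers the difference was −391, −89.8 and −290 CPM, from the lowest range to the highest. Every range held at least 1 NEO library with Drd4 reads.

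Drd4 was not alone in this shape. Of 5143 genes with any read, 528 (10.3%) had reads in NEO libraries alone, and 33 (0.642%) did so with as many NEO reads as Drd4 or more. Drd4 is counted among both.

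Slc6a2, the noradrenaline transporter gene, had reads in SENS alone, and there in 2 libraries. SENS 4 had 764 CPM from 8.2 reads and SENS 5 had 847 CPM from 10.2 reads. The other 4 SENS libraries and all 6 NEO libraries were at 0. The SENS mean was 268 ± 417 CPM (SD, n = 6), and the SENS median was 0, as in NEO.

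Pooled, Slc6a2 had 18.4 of 78624 reads in SENS, a level of 234 CPM, and 0 of 51054 in NEO, so it was at least 3.98-fold higher in SENS against the NEO limit of 58.8 CPM. Library variation and the depth of whole libraries are not in this bound either. It was 2.10 without SENS 5 and 2.56 without SENS 4, and the difference of the means fell from 268 to 153 and 169 CPM. Both libraries stood well above the 3-read limits of the NEO libraries, which lay between 269 and 435 CPM. The 2 libraries came from different ranges of library numbers, and the difference was 0, 255 and 424 CPM from the lowest range to the highest. Both values carry 0.2 of a read, so a small part of the Slc6a2 signal is fractional, and its source was not tested.

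Slc6a2 was not alone in its shape either, and its reads lay in the group with more reads in the genes of this table. Reads in SENS and none in NEO were found for 1168 genes (22.7% of those with any read), and 241 of them (4.69%) had reads in exactly 2 SENS libraries. At least as many SENS reads as Slc6a2, with none in NEO, were found for 54 genes (1.05%), Slc6a2 included.

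**Figure D2:**
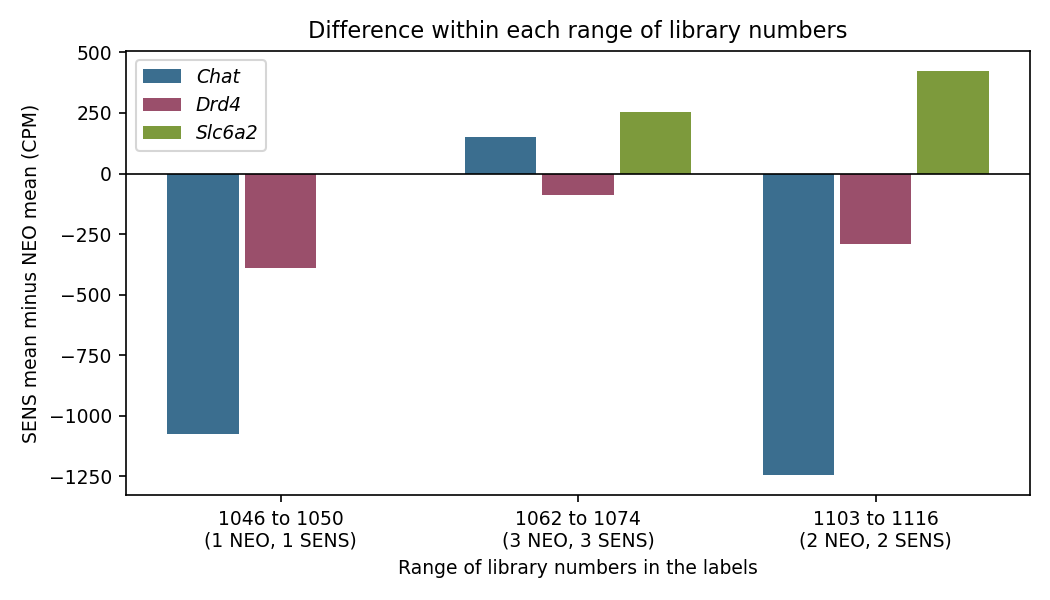
SENS mean minus NEO mean in CPM (vertical axis) for each gene within the 3 ranges of library numbers in the labels (horizontal axis, with the libraries per group). Chat is lower in SENS in the outer ranges and higher by 152 CPM in the middle one, Drd4 is lower in all 3, and Slc6a2 is at 0 in the lowest range.

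Markers of other cells differed between the 2 libraries with Slc6a2 reads. In SENS 4 the summed level of the 6 pituitary markers in the table was 9796 CPM, the highest of all libraries, against 532 CPM in SENS 5; SENS ran from 64.1 to 9796 CPM and NEO from 380 to 2797 CPM. Growth hormone (Gh) and prolactin (Prl) had 33 and 52 reads in SENS 4. The 5 blood markers summed to 4236 CPM in SENS 5 and to 2142 CPM in SENS 4. SENS ran from 1585 to 4536 CPM and NEO from 635 to 2536 CPM. In both libraries the reads were of Ptprc and Cd52 alone, with 45 and 6 in SENS 5 and 9 and 14 in SENS 4. Hba-a1, Slc4a1 and Cd79a were at 0 in both, so the sum does not stand for blood as a whole. The part of pituitary or blood cells in the Slc6a2 level was not tested. Of the 6 markers listed for noradrenaline neurons, the table held Slc6a2 itself and the transcription factor gene Tfap2b, which had 1 read, in SENS 3. The other listed markers of these neurons are not analysed here. No marker listed for dopamine or AgRP neurons, astrocytes and tanycytes, oligodendrocytes, microglia or vessels was in the table. The POMC neuron markers were missing as well, and how genes were filtered is not stated. A missing row is therefore no evidence that a gene was not expressed.

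Chat shared libraries with both other genes. Chat was above 0 in each of the 3 libraries with Drd4 reads (NEO 1, NEO 2 and NEO 5) and in both with Slc6a2 reads (SENS 4 and SENS 5). It was above 0 in 5 of 6 NEO and 4 of 6 SENS libraries in all, so this overlap says little. In SENS 4 and SENS 5 Chat also had its highest SENS levels. Drd4 and Slc6a2 were never found in the same library, which follows from Drd4 having reads in NEO alone and Slc6a2 in SENS alone. Chat's highest library, NEO 6, had neither of them.

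The genes most like each member were sought by Spearman's rho over the 12 libraries, among about 1930 named genes above 0 in at least 4 libraries. These are descriptions of sparse values that share library depth, and the top of so many comparisons is high by selection. Chat's closest gene was Vmn2r46, a vomeronasal receptor gene (rho 0.92), with 24.23 reads in NEO and 24.5 in SENS. The serine protease gene Tmprss9 (rho 0.89; 21 and 24 reads) and Dydc1 (rho 0.85; 12 and 20 reads) came next. None of these 3 had fewer reads in SENS, whereas Chat had 41 in NEO and 21 in SENS; rho was taken on CPM, which also reflect the larger SENS totals. For Drd4 they were the chitinase-like gene Chil4 (rho 0.86; 6 reads in NEO and 0 in SENS), the unconventional myosin gene Myo7b (0.86; 26 and 1) and the lipid receptor gene Gpr119 (0.84; 21 and 3). For Slc6a2 they were Themis, a gene of T cell development (48 reads in SENS, 0.33 in NEO), Fcrl1 and Rgsl1, all at rho 0.76. Fcrl1, an Fc receptor-like gene of B cells, had 18 reads in SENS and 3 in NEO, and Rgsl1 had 30 and 1. Those for Slc6a2 rest on SENS 4 and SENS 5 alone.

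The remaining genes of these transmitter systems came from 7 lists with 142 genes in all, covering acetylcholine, catecholamines, serotonin and histamine, SLC6 transporters and the transcription factors of such neurons. The table held 34 of them, the 3 members among these. The question was whether any of the other 31 differed between SENS and NEO. Of the 30 that could be tested, limma called 0 higher and 0 lower in SENS at a Benjamini-Hochberg adjusted p under 0.05. The share called over all 5141 genes tested was 0%. At an unadjusted p under 0.05 there was 1 listed gene, Pitx3, against 3.68% of all genes (189 genes). Fitted log2 fold changes were above 0 for 16 and below 0 for 14, with a median of 0.02 against 0.39 over all genes. Genes at 0 in a whole group (8 of the 30 and 1694 of the 5141) were also set to their bound. Where the other group was at or under the limit, that value was 0. Both medians were then 0, which this rule favors, so their match says little. The median standard error over all genes was 1.82 on this log2(CPM + 1) scale, so the fit says little about modest differences. Large ones could fail to pass as well. Pitx3, with a limma log2 fold change of −5.66, had an adjusted p = 0.728, the smallest of all genes. A count of 0 is therefore no evidence that large differences are absent.

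**Figure D3:**
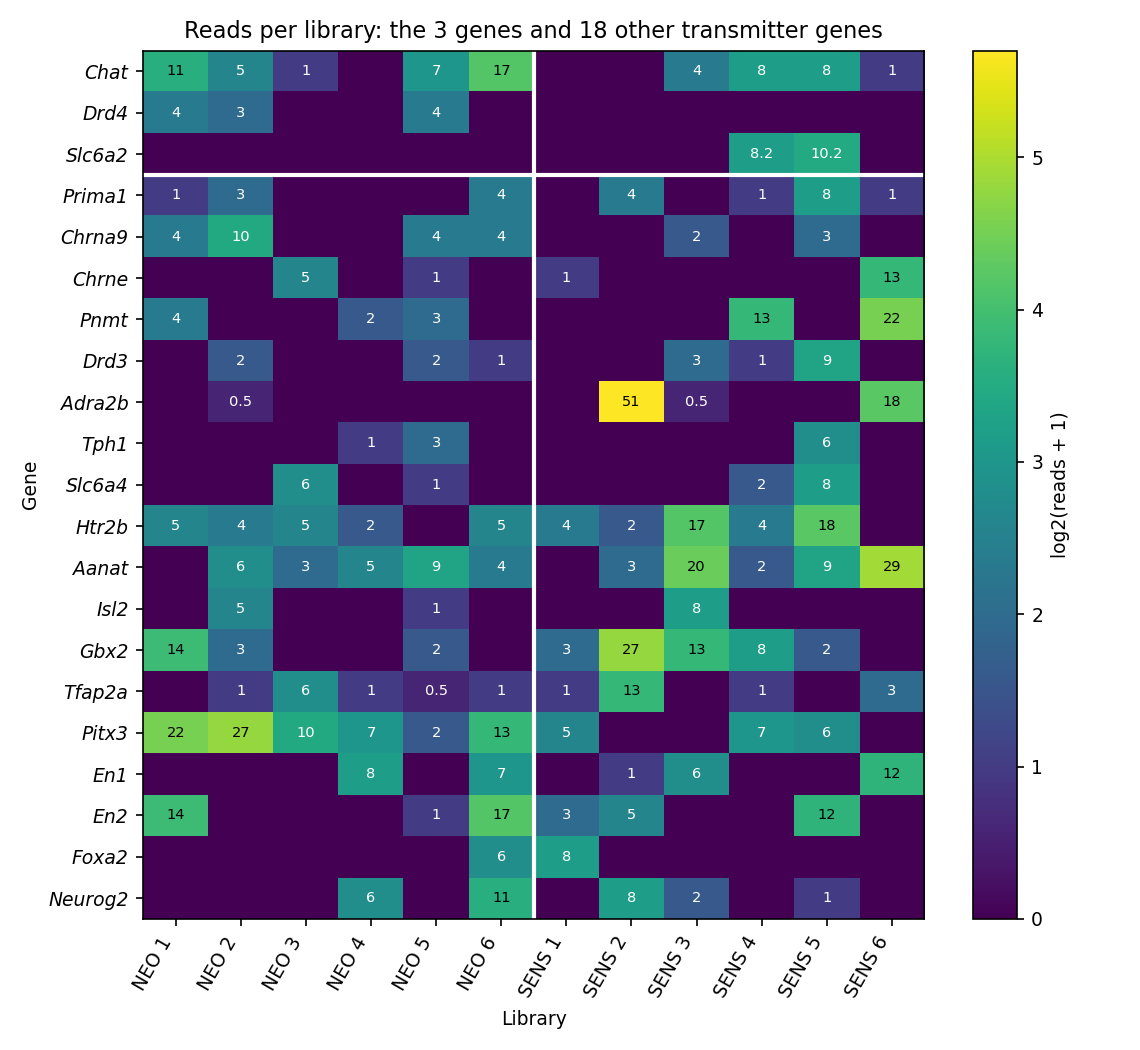
Reads in each library (columns, NEO left and SENS right of the white line) for Chat, Drd4 and Slc6a2 (above the line) and the 18 other listed genes with at least 10 reads; color gives log2(reads + 1), and the number in a cell the reads. Most genes have their reads in a few libraries, as with the 51 reads of Adra2b in SENS 2.

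Around Chat, the table held few cholinergic genes. Prima1, which anchors acetylcholinesterase in the membrane, had 8 reads in 3 NEO libraries and 14 in 4 SENS libraries, 147 ± 209 against 178 ± 256 CPM. Chrna9, the α9 nicotinic receptor subunit, leaned as Chat did, with 22 reads in 4 NEO libraries and 5 in 2 SENS libraries. Its mean was 397 ± 350 CPM for NEO against 66.5 ± 108 CPM for SENS (SD over 6 libraries), and limma gave a log2 fold change of −3.57 ± 2.78 (SE) with an adjusted p = 0.745, so it did not pass. Chrna9 was at 0 in NEO 3, SENS 4 and SENS 6, where Chat had reads; in the other 9 libraries both were above 0 or both at 0. Chrne, the ε subunit of the muscle receptor, had 5 of 6 NEO reads in NEO 3 and 13 of 14 SENS reads in SENS 6. The listed genes Colq, Chrna2, Chrna10 and Chrng had 5 reads or fewer each.

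Around Drd4, the table held 3 more receptors for dopamine or noradrenaline, and each of these had SENS reads. Drd3, the D3 receptor gene and like Drd4 of the D2-like class, had 5 NEO reads and 13 SENS reads, and SENS 5 held 9 of the latter. The Drd3 mean was 99.7 ± 121 CPM for NEO against 178 ± 293 CPM for SENS (SD over 6 libraries), and limma gave a log2 fold change of 0.20 ± 2.77 (SE) with an adjusted p = 1.00. The mean was thus higher in SENS for Drd3 and in NEO for Drd4, and whether the genes differ in this was not tested. Adra2b, an inhibitory adrenoceptor gene, had 0.5 NEO reads and 69.5 SENS reads, with 51 in SENS 2 and 18 in SENS 6. That is 7.48 ± 18.3 CPM against 715 ± 1312 CPM (SD over 6 libraries), with a limma log2 fold change of 3.56 ± 2.45 (SE) and an adjusted p = 0.745. Adra1d had 3 reads, all in SENS.

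Around Slc6a2, the catecholamine list held 1 other gene, Pnmt, which encodes the enzyme that turns noradrenaline into adrenaline. Pnmt had 9 reads in 3 NEO libraries and 35 in SENS, 13 in SENS 4 and 22 in SENS 6. The mean was 180 ± 206 CPM for NEO and 402 ± 623 CPM for SENS, while limma put the log2 fold change at −0.82 ± 2.80 (SE; adjusted p = 0.957), so the 2 scales differ in sign. Pnmt and Slc6a2 shared SENS 4 and no other library. Slc6a4, the serotonin transporter gene and a close relative of Slc6a2, had 2 reads in SENS 4 and 8 in SENS 5, the libraries with Slc6a2 reads, and 6 in NEO 3 and 1 in NEO 5. Slc6a4 averaged 164 ± 336 CPM for NEO and 142 ± 267 CPM for SENS, with a limma adjusted p = 1.00.

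Of the serotonin and histamine list, the table held genes of serotonin and melatonin and none of histamine. Htr2b, a serotonin receptor gene, averaged 408 ± 261 CPM for NEO and 622 ± 617 CPM for SENS, with reads in 5 libraries of each group. Aanat, an enzyme of melatonin synthesis, had 569 ± 423 and 702 ± 698 CPM, also in 5 libraries of each. Tph1, which makes serotonin outside the brain and in the pineal, had 4 NEO reads, and 6 reads in SENS 5 alone. None passed, with limma adjusted p of 1.00 for Htr2b and Aanat and 0.854 for Tph1.

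Of the transcription factors, Pitx3, needed for midbrain dopamine neurons, had the smallest unadjusted p among listed genes. It had 22, 27, 10, 7, 2 and 13 reads in NEO and 5, 0, 0, 7, 6 and 0 in SENS. Its mean was 1471 ± 794 CPM for NEO against 288 ± 320 CPM for SENS (SD over 6 libraries), with a limma log2 fold change of −5.66 ± 1.64 (SE) and an adjusted p = 0.728. All NEO libraries had Pitx3 reads, yet NEO 5 lay below SENS 1, SENS 4 and SENS 5, and the gene did not pass. Gbx2, a homeobox gene of the border between midbrain and hindbrain, averaged 321 ± 531 CPM for NEO and 661 ± 638 CPM for SENS (limma log2 fold change 3.23 ± 2.29, SE; adjusted p = 0.745). En1 and En2, homeobox genes of midbrain and hindbrain, had 15 and 32 reads in NEO and 19 and 20 in SENS. Isl2, a motor neuron factor, had 6 and 8 reads, Tfap2a 9.5 and 18, Foxa2 6 and 8, and Neurog2 17 and 11. Lhx8, of forebrain cholinergic neurons, had 3 reads in SENS 1, and Gata3, of sympathetic neurons, had 3 in SENS 3 and 1 in SENS 5.

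**Figure D4:**
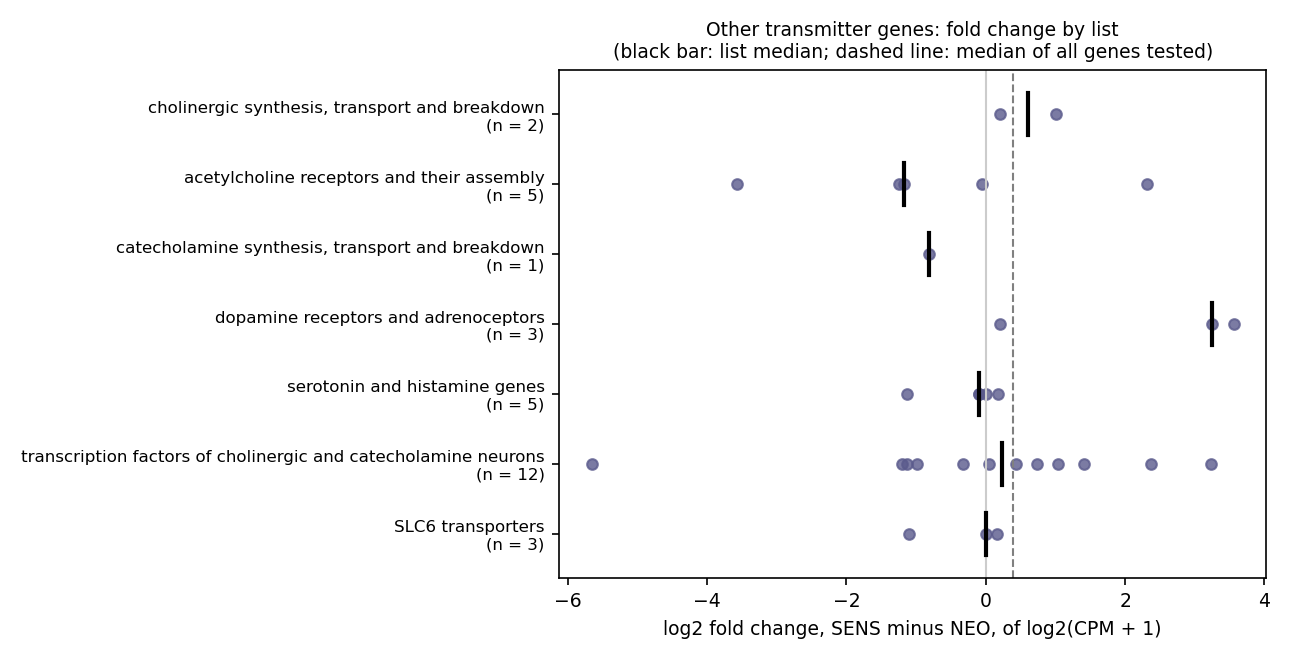
Fitted log2 fold change (horizontal axis, SENS minus NEO, on the log2(CPM + 1) scale) of each tested gene in the 7 lists, the members left out; black bars give list medians and the dashed line the median of all genes, 0.39. The genes lie on both sides of 0, from −5.66 for Pitx3 to 3.56 for Adra2b, and none passed the test.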

How the data were processed

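The authors deposited 1 table of CPM values with 5764 genes and 12 library columns, all mapped to the labels. Per the submitters' processing notes, which state no versions or roles, FastQC, HISAT2, featureCounts, edgeR and the builds mm10 and GRCm38 were used. How genes were filtered, strand used or shared reads handled is not stated there. Deposited columns sum to between 999936 and 1000000, so CPM are relative to the genes of this table, and the depth of whole libraries is unknown. The most frequent value above 0 in a column was taken as 1 read. On that scale 81.2% of values above 0 were whole (tolerance 0.005 reads), too few for a count model.

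SENS was compared with NEO over the whole table with limma 3.58.1 in R 4.3.3, on log2(CPM + 1) with a variance trend, for genes averaging at least 1 CPM. Tests were two-sided, p-values were Benjamini-Hochberg adjusted over all genes tested, and 0.05 was the threshold. The members and the gene lists were chosen with earlier results of these data known, and the promoter motifs after the sequences had been seen. Genes named were the members, listed genes with at least 10 reads, and for each member the 3 genes of largest Spearman's rho. Further names below 10 reads, and Ces1a, were added after their values were seen. RefSeq held 5728 of the symbols (99.4%). Alternatives were other pseudocounts, filters, scaling and variance models, blocks, and leaving out each library.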

Additional observations from a re-analysis of the deposited data

Results flagged for a closer look

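A library stood apart from the other 5 of its group, by its gap to the nearest divided by the group's range, in 18 of 42 combinations of gene and group (Chat, Drd4, Slc6a2 and 18 listed genes). Chance alone gives about 1 in 20 for normally distributed values, but genes with reads in 1 or 2 libraries meet this readily. None of these were Chat, Drd4 or Slc6a2. SENS 5 stood apart with 747 CPM of Drd3, 498 CPM of Tph1, 664 CPM of Slc6a4 and 997 CPM of En2. SENS 2 did so with 3271 CPM of Adra2b, 834 CPM of Tfap2a and 513 CPM of Neurog2. SENS 6 had 710.4 CPM of Chrne, SENS 3 had 599.8 CPM of Isl2, and SENS 1 had 928 CPM of Foxa2. Among NEO libraries, NEO 3 had 699 CPM of Chrne, 839 CPM of Slc6a4 and 839 CPM of Tfap2a. NEO 2 had 44.9 CPM of Adra2b and 449 CPM of Isl2. NEO 1 had 1368 CPM of Gbx2, NEO 5 had 435 CPM of Tph1, and NEO 6 had 775 CPM of Foxa2.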

How the results depend on the processing

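The limma count of genes called stayed at 0, over all genes and over the listed genes, with every pseudocount, filter, scaling, variance model and block tried and with each library left out. With standard errors this large, a steady count of 0 does not show that large differences are absent. At an unadjusted p under 0.05 these settings gave between 132 and 249 genes, and the smallest adjusted p lay between 0.177 and 0.813. With each library left out, the SENS minus NEO difference of Chat kept its sign, from −681 to −242 CPM. It ran from −248 to −132 CPM for Drd4 and from 153 to 322 CPM for Slc6a2. Neither of these signs could change, as 1 group was at 0 throughout and the other had reads in more than 1 library. With medians in place of means the difference was −554 CPM for Chat, −135 CPM for Drd4 and 0 for Slc6a2. Averaged over the ranges of library numbers it was −723, −257 and 226 CPM. The fitted log2 fold change of Chat ran from −3.93 without NEO 4 to −1.10 with a pseudocount of 100 CPM. The labels give no sign that equal replicate numbers mark shared mice or days. Deviations of same-numbered libraries correlated at −0.03 to 0.08, and in 1 of 6 pairs both libraries matched best with their own number. With the replicate block, limma called 0 genes (176 at an unadjusted p under 0.05), and the differences of the members, at −518, −207 and 268 CPM, do not move by construction. The reads limit all of this: 1 read more or less moves a library by 54.6 to 145 CPM.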
